A study of Mus musculus with 128 samples.

Results

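The comparison asked which kidney messenger RNAs changed between 15 and 24 months of age in male mice. It used 8 whole-kidney RNA-seq libraries of wild-type C57BL/6J animals given no treatment, 4 at 15 months and 4 at 24 months, out of 128 libraries that cover 8 tissues at 6, 15, 24 and 30 months. Every gene of the Kidney table that passed a filter on low read numbers was taken, which gave 15104 of 55285 genes. Tissue was powdered in liquid nitrogen before extraction and the libraries were stranded mRNA libraries. The labels do not say whether the 4 libraries of an age came from 4 animals, so the p-values measure the spread between these libraries, which may be technical in part.

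The kidney filters blood in glomeruli, whose outer layer is made of podocytes, and recovers most of the filtrate in the proximal tubule, a cell rich in mitochondria and in solute transporters. Later tubule segments adjust salt, calcium and acid, and they are the main source of klotho, a co-receptor for a phosphate-regulating hormone. Resident macrophages lie between the tubules. Secreted and membrane proteins of all these cells are folded in the endoplasmic reticulum by chaperones such as the one encoded by Hspa5.

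Levels are given as normalised reads, the reads of each gene divided by a size factor for each library, and 4 values for one age are in the order of replicates 1 to 4. Libraries are named by age in months and replicate, 15M1 to 15M4 and 24M1 to 24M4. Changes are log2 differences, 24 minus 15 months, on the log2(normalised reads + 1) scale with their standard error (n = 4 and 4), and a gene was called at an adjusted p under 0.05 in limma over all genes tested. The 8 libraries held about 11908000 to 23325000 reads each, mitochondrial transcripts took 13.2% to 15.4% of them, and the median rank correlation of each library with the other Kidney libraries was 0.985 to 0.991. Tubule markers were abundant: the summed level of 9 proximal tubule markers was 193550 to 211460 normalised reads at 15 months and 174320 to 188120 at 24 months. The summed level of 4 neutrophil markers was 27.1 to 84.8 at 15 months and 4.77 to 81.3 at 24 months. Of these markers only Ly6g was 0 in all 8 libraries. The summed level of 6 endothelial markers was 4679 to 5010 at 15 months and 4642 to 5434 at 24 months. One library, 24M1, held the highest level of most antigen-presentation and interferon-response genes named here, and those genes are given with and without it.

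Between 15 and 24 months 1174 of 15104 genes (7.77%) changed, 599 upward (3.97%) and 575 downward (3.81%). By their medians the rises were larger than the falls. Of the 599 genes that rose, 145 (24.2%) changed at least 2-fold, against 15 of the 575 that fell (2.61%), and the median change was 0.66 among the genes that rose and -0.29 among those that fell. Genes of the immune lists made up 82 of the 599 that rose (13.7%) and 3 of the 575 that fell, where such genes were 1.84% of all genes tested. The 4 values of one age lay wholly outside the 4 of the other for 2510 genes (16.6%). Among called genes the share was 96.5% of those that rose and 95.8% of those that fell. Genes named for the size of their change were chosen to have such a gap. For a called gene, a gap between ages therefore adds little to the call. The median change over all genes tested was -0.002.

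The number of genes called depended on single libraries. Without 24M3 there were 347 calls, without 15M4 there were 450, without 15M1 there were 584, without 24M4 there were 717 and without 15M2 there were 778. The 1174 genes kept their sign in every alternative fit. Most of them had no overlap between ages and could not change sign when 1 library was left out. The kept signs are therefore no test of the direction. Where a gene named below lost its call in a fit without 1 library, the libraries concerned and the highest adjusted p of the 8 such fits are given, and libraries joined by "or" were left out in turn, never together. In a further alternative, the 16-library fit, all 16 Kidney libraries shared 1 estimate of the spread; genes named below that were no longer called there are given with their adjusted p, and lists whose count moved by more than 1.5 times with their count.

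**Figure D1:**
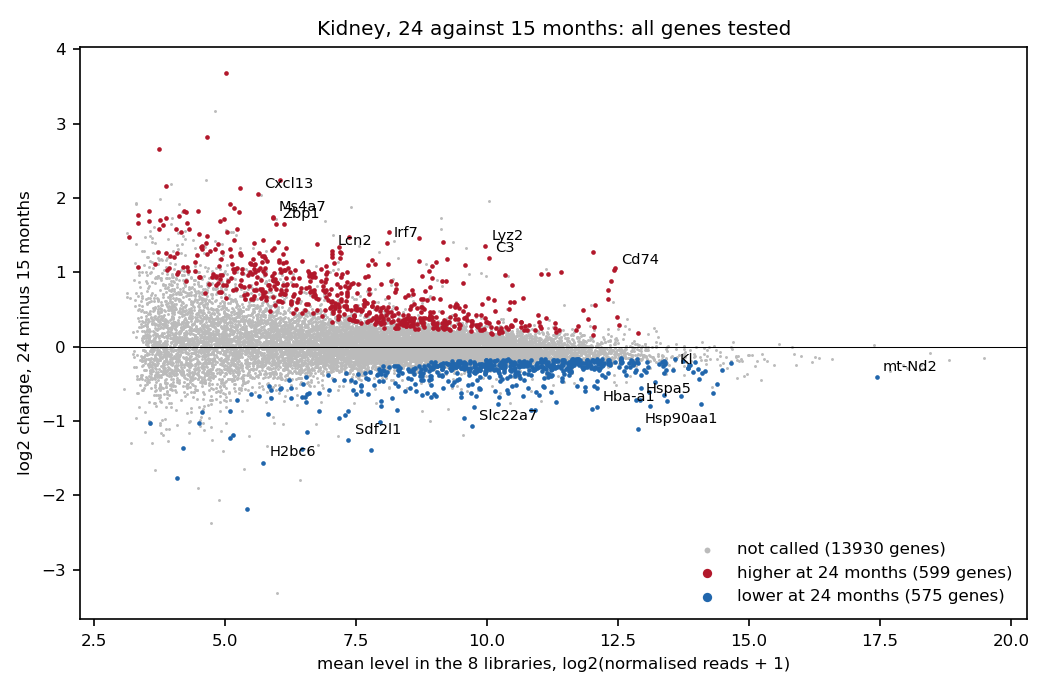
Log2 change from 15 to 24 months (vertical) against the mean level of each of the 15104 genes in the 8 Kidney libraries (horizontal, log2 of normalised reads plus 1); red points are the 599 genes called higher, blue points the 575 called lower and grey points the rest. The genes that rose spread up to a log2 change of 3.68, while most that fell lie close to the median fall of -0.29.

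Genes of macrophages rose together. Of 24 macrophage genes tested, 18 rose and none fell, and the median change of the list was 1.13 beside -0.002 for all genes. Ms4a7, a membrane protein of tissue macrophages, had 22.5, 30.2, 24.2 and 28.4 normalised reads at 15 months and 75.6, 70.7, 120.4 and 101 at 24 months. Each 24-month library was above each 15-month library, and the change was 1.74 ± 0.20 (adjusted p = 0.00196). Lyz2, the lysozyme of macrophages and neutrophils, rose from 606, 595, 479.6 and 548 to 1191, 1168, 1777 and 1653, a change of 1.36 ± 0.14 (adjusted p = 0.00151). The groups did not overlap here either, and 24M3 and 24M4 were the highest.

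Aif1, an actin-binding protein of macrophages, stood at 25.9, 27.3, 29.2 and 27.5 and then 85.0, 63.0, 78.3 and 80.2, a change of 1.44 ± 0.15 (adjusted p = 0.00151). The surface receptors Adgre1 and Cx3cr1, both used as markers of resident kidney macrophages, rose by 1.27 ± 0.18 and 1.25 ± 0.18 with adjusted p of 0.00376 and 0.00511. Among the genes with the largest rises were C3ar1, the receptor of the complement fragment C3a, and the inhibitory lectin receptor Clec12a. C3ar1 went from 31.5, 24.4, 32.1 and 41.2 to 89.1, 69.7, 123 and 141 (1.65 ± 0.23, adjusted p = 0.00404), and Clec12a from 43.9, 25.9, 36.3 and 32.1 to 95.8, 75.4, 101 and 97.6 (1.41 ± 0.18, adjusted p = 0.00251). Both had all 24-month libraries above all 15-month libraries. The scavenger receptor Cd163 rose by 1.49 ± 0.30 (adjusted p = 0.0173) from a low level of 6.75 to 15.6 normalised reads, and missed the threshold without 24M3 (adjusted p = 0.0583).

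Other macrophage genes did not pass the test. Csf1r, the growth factor receptor on which these cells depend, had 819.5, 948, 770.3 and 820.4 normalised reads at 15 months and 1007, 856, 1068 and 1011 at 24 months, a change of 0.23 ± 0.08 that was not called (adjusted p = 0.107), and the groups overlapped. In a list of 18 genes of lipid-associated and activated macrophages 3 rose and the median change was 0.01, with 1 rise left without 15M4 or 24M3. Gpnmb, a glycoprotein of that state, had 12.1 to 16.9 and then 19.1 to 34.1 normalised reads (0.94 ± 0.24, adjusted p = 0.04). Its call was lost without 15M1, 15M2, 15M3, 15M4, 24M1, 24M3 or 24M4 (highest adjusted p = 0.125) and in the 16-library fit (adjusted p = 0.154), where 1 gene of the list rose. Trem2, the lipid receptor of such cells, had 2.88 to 12.8 and 12.5 to 21.0 normalised reads and a change of 1.16 ± 0.39 (adjusted p = 0.0935). The pan-leukocyte gene Ptprc rose from 225, 203, 233 and 216 to 405, 325, 447 and 412 (0.85 ± 0.10, adjusted p = 0.00196), without overlap. In whole tissue more cells of a type and more RNA per cell cannot be told apart.

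**Figure D2:**
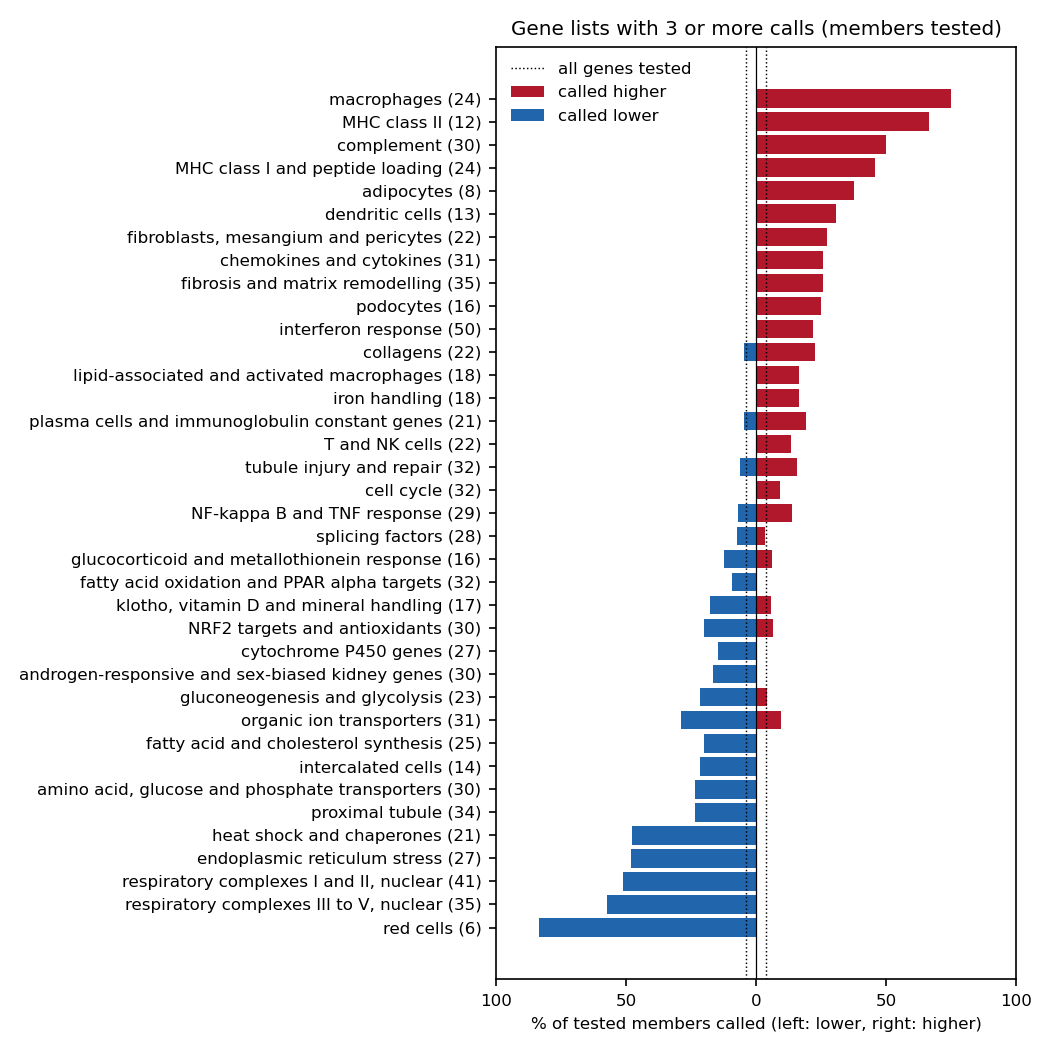
Share of the tested members of each gene list that were called higher (red, right) or lower (blue, left) at 24 than at 15 months, for the lists with 3 or more calls; the number of members tested is in brackets and dotted lines mark the shares over all genes, 3.97% and 3.81%. Macrophage genes and class II genes have the longest bars to the right, and red cell, respiratory chain and chaperone genes the longest to the left.

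Antigen presentation genes rose. Of 12 genes of the class II pathway, which shows peptides from engulfed proteins to helper T cells, 8 rose and none fell (median 0.99). Of 24 genes of the class I pathway, which shows peptides from inside the cell, 11 rose and none fell (median 0.70). Cd74, the chain that guides class II molecules, had 3249, 3631, 3589 and 3599 normalised reads at 15 months and 12005, 5588, 6461 and 6097 at 24 months (1.03 ± 0.19, adjusted p = 0.0116). Library 24M1 was far above the other 24-month libraries, and the groups did not overlap. Without that library the change of Cd74 was 0.78 (adjusted p = 0.00154).

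H2-Aa, a chain of the class II molecule itself, rose by 0.97 ± 0.16 (adjusted p = 0.00782) and by 0.78 without 24M1 (adjusted p = 0.00233). H2-DMb2, part of the peptide editor of that pathway, went from 30.4, 20.1, 19.2 and 20.2 to 224, 43.9, 70.4 and 47.6, and its change was 1.74 ± 0.43 (adjusted p = 0.0349). It was 1.22 without 24M1 and kept its call (adjusted p = 0.0215), but the call was lost without 15M1, 15M2, 15M3, 15M4 or 24M3 (highest adjusted p = 0.0918). Ciita, the master activator of class II genes, stood at 67.5, 94.9, 113 and 78.8 and at 681, 135, 182 and 148. With all 8 libraries its change was 1.35 ± 0.42 and was not called (adjusted p = 0.0756), and without 24M1 it was 0.81 and was called (adjusted p = 0.0298).

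In the class I pathway B2m, the light chain of the molecule, rose from 3382, 3697, 3662 and 3618 to 10806, 5311, 5782 and 5864 (0.89 ± 0.18, adjusted p = 0.0165), and the change without 24M1 was 0.65 (adjusted p = 0.00154). Nlrc5, the activator of class I genes, rose from 55.2, 67.6, 99.8 and 89.8 to 515, 176, 167 and 137 (1.48 ± 0.36, adjusted p = 0.0321). Without 24M1 it rose by 1.05 (adjusted p = 0.0169), and its call was lost without 15M1, 15M2, 15M4 or 24M3 (highest adjusted p = 0.0799). H2-K1, a heavy chain, rose by 0.76 ± 0.18 (adjusted p = 0.0311; highest 0.0759, no call without 15M1, 15M2, 15M3, 15M4 or 24M3), and its change was 0.52 without 24M1 (adjusted p = 0.00177). Psmb8, a subunit of the immunoproteasome, rose by 1.11 ± 0.28 (adjusted p = 0.0367; highest 0.0861, no call without 15M1, 15M2, 15M3, 15M4, 24M3 or 24M4), and its change was 0.76 without 24M1 (adjusted p = 0.00819). Members of the H2 family are near copies of each other, and how reads were split between them can move their levels. Without 24M1 the counts were 9 of 12 class II genes and 14 of 24 class I genes. The class II count was 4 without 15M1, 15M2, 15M4 or 24M3 and 5 without 15M3, and the class I count was 5 without 15M1, 15M4 or 24M3 and 6 without 15M2. By limma-voom with quality weights H2-DMb2, Nlrc5 and Psmb8 were not called (adjusted p = 0.0565, 0.0584 and 0.052).

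Of 50 interferon-response genes 11 rose and none fell, with a median change of 0.88. All 50 changes were positive. The values of 3 of them show the spread at 24 months. Irf7, which drives type I interferon genes, had 120.5, 138, 178 and 135 normalised reads at 15 months and 667, 264, 286 and 388 at 24 months (1.40 ± 0.25, adjusted p = 0.00981). Zbp1, a sensor of nucleic acids, had 14.6, 30.2, 36.3 and 27.5 and then 192, 43.9, 76.1 and 73.2 (1.64 ± 0.40, adjusted p = 0.0332). Tgtp2, an interferon-inducible GTPase, had 152, 183, 219 and 185 and then 1538, 321, 354 and 384 (1.47 ± 0.40, adjusted p just under the threshold, printed as 0.05 after rounding). In all 3 genes the groups were apart and 24M1 stood far above the other 24-month libraries.

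Without that library these changes were smaller. Irf7 then rose by 1.12 (adjusted p = 0.0048), Zbp1 by 1.24 (adjusted p = 0.0455) and Tgtp2 by 0.94 (adjusted p = 0.00427), and 17 genes of the list were called. Without 24M2, the lowest of the 4 in this list, 22 were called. Fewer passed without 15M1 (3), 15M2 (5), 15M4 (5) or 24M3 (4). By DESeq2 24 genes of the list rose and by limma-voom with quality weights 7, with Tgtp2, Zbp1 and Ifit1 not called by the latter (adjusted p = 0.0863, 0.0559 and 0.0657). The call of Tgtp2 was lost without 15M1, 15M2, 15M3, 15M4, 24M3 or 24M4 (highest adjusted p = 0.112) and that of Zbp1 without 15M1, 15M2, 15M4, 24M3 or 24M4 (highest 0.0861). Ifit1, which binds foreign RNA, rose by 1.19 ± 0.31 (adjusted p = 0.0419) and lost its call without 15M1, 15M2, 15M4, 24M1, 24M3 or 24M4 (highest 0.103). Its change was 0.91 without 24M1 (adjusted p = 0.0696). Isg15, a small modifier protein, rose by 1.14 ± 0.17 (adjusted p = 0.0054) and kept its call in all 8 such fits, with 0.98 without 24M1 (adjusted p = 0.00744). Oasl1, a relative of the oligoadenylate synthetases, rose by 1.23 ± 0.25 (adjusted p = 0.0185), with a highest adjusted p of 0.0557 and no call without 15M1 or 24M3. It changed by 0.99 without 24M1 (adjusted p = 0.0298).

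The promoters of 3 interferon-response genes are shown because they hold the core of the interferon-stimulated response element, the sequence to which interferon-activated factors bind. The sequences are from RefSeq, build GRCm38.p6, 250 bases up to the start of transcription, each written in the direction of its gene, and capitals mark matches to GAAANNGAAA on either strand. Isg15 (chr4:156200819-156201068, minus strand) holds 3 matches that overlap, Ifit1 (chr19:34640639-34640888, plus strand) 2 matches on the opposite strand and Tgtp2 (chr11:49064213-49064462, minus strand) 1 match.
Isg15: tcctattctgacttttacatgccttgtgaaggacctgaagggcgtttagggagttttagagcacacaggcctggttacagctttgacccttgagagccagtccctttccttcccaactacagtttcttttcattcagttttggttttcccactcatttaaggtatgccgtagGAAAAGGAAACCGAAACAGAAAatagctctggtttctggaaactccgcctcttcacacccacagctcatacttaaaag
Ifit1: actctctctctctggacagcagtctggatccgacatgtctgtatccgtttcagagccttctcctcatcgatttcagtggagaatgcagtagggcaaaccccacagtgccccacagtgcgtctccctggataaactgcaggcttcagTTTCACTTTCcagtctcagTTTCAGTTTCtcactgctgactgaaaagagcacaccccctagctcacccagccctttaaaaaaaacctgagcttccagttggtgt
Tgtp2: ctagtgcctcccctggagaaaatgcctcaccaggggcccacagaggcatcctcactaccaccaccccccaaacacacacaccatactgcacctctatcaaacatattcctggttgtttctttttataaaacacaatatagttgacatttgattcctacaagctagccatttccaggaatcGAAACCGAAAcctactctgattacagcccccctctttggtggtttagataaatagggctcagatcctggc
Of the 15104 genes tested, 11272 had a promoter of that table by symbol. Within 250 bases before to 50 after the start the motif was found in 25 of 36 tested interferon-response genes with a promoter, in 5 of the 9 that were called, in 6.94% of 461 genes that rose, in 3.47% of 461 that fell and in 3.92% of all 11272, while 3.44% of the 32851 promoters of the table held it. The motif is short and a match is a description. The kappa B core GGACTTTCC, searched the same way, was found in 2 of 461 genes that rose, 2 of 461 that fell and 0.53% of all. Matches of 2 different motifs overlapped in 3 promoters of the table.

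Of 30 complement genes 15 rose and none fell (median 0.60), and 14 to 16 rose in the 8 fits without 1 library. The C1q chains that start the classical pathway, made mostly by macrophages, rose: C1qa from 270.2, 354, 308 and 315 to 687, 496, 688 and 813 (1.09 ± 0.13, adjusted p = 0.00235), and C1qc by 1.16 ± 0.11 (adjusted p = 0.00151). C3, the protein on which all complement pathways meet and which injured tubules also make, rose from 517, 624, 802 and 599 to 1438, 1092, 1410.2 and 1895 (1.19 ± 0.16, adjusted p = 0.0033). C4b, the next component of the classical pathway, had 236, 246, 416 and 302 and then 1357, 463, 749 and 778 (1.41 ± 0.27, adjusted p = 0.0147). Library 24M1 was again the highest 24-month library for C4b, and the change without it was 1.14 (adjusted p = 0.0164). C7, part of the membrane pore, rose by 0.88 ± 0.15 (adjusted p = 0.00782). Cfd, a protease of the alternative pathway that fat cells secrete, rose by 1.10 ± 0.25 (adjusted p = 0.0273), and lost its call without 15M1, 15M4, 24M2 or 24M4 (highest adjusted p = 0.0629).

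Among signals that attract leukocytes, 8 of 31 chemokine and cytokine genes rose and none fell (median 0.46). Cxcl13, which draws B cells, went from 16.9, 12.9, 22.8 and 12.8 to 27.7, 66.8, 88.6 and 141 (2.06 ± 0.41, adjusted p = 0.0157), with no call without 15M4 or 24M3 (highest adjusted p = 0.0599). Ccl8, a macrophage-derived chemokine for monocytes and T cells, went from 9.01, 21.6, 7.84 and 15.6 to 78.9, 29.6, 57.9 and 83.6 (2.13 ± 0.38, adjusted p = 0.00981). Both genes were low at 15 months, and their 24-month values varied several-fold while remaining above every 15-month value. The count for the list was 3 without 15M4 or without 24M3.

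Few lymphocyte genes were called in number. In the main fit the shares that rose in the T and NK cell, B cell and plasma cell lists were above the 3.97% of all genes. In the T and NK cell list 3 of 22 rose and none fell (median 0.68), and no call or 1 call was left without 15M2, 15M3, 15M4, 24M3 or 24M4 (0, 0, 1, 0 and 0). Cd4, the co-receptor of helper T cells, had 30.4, 18.7, 12.1 and 10.1 and then 29.0, 40.1, 46.6 and 52.3 normalised reads, groups that overlapped (1.28 ± 0.33, adjusted p = 0.0382; highest 0.114, no call without 15M2, 15M3, 15M4, 24M2, 24M3 or 24M4). In the B cell list 1 of 15 rose (median 0.49), and this was Ighm, the heavy chain of IgM. Ighm went from 2266, 2975, 2230.4 and 2203 to 5320.5, 4573, 8454 and 5429 (1.27 ± 0.16, adjusted p = 0.00266), and the light chain gene Igkc from 3693, 3520.2, 4339 and 2621 to 7095, 4799.9, 10059 and 8209 (1.06 ± 0.20, adjusted p = 0.0137). Both were apart between ages, but neither was called in the 16-library fit (adjusted p = 0.416 and 0.324); their 30-month values ran from 1524 to 47098 and from 2469 to 36256. Cd72, a receptor of B cells that macrophages also carry, rose from 64.2, 54.6, 56.3 and 58.7 to 149, 129, 153 and 190.5 (1.38 ± 0.13, adjusted p = 0.00151). Of 21 plasma cell and immunoglobulin genes 4 rose and 1 fell (median 0.71), with 2 rises without 15M1, 15M3, 15M4, 24M3 or 24M4. The one that fell was Derl3, a factor of protein disposal in the endoplasmic reticulum, at -1.18 ± 0.28 (adjusted p = 0.0307; highest 0.0827, no call without 15M2, 15M3, 15M4, 24M3 or 24M4). In the 16-library fit Derl3 was not called (adjusted p = 0.154) and 1 gene of the list rose. None of 5 neutrophil genes was called by limma, edgeR, DESeq2 or limma-voom, and 1 had an unadjusted p under 0.05.

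Chaperones of the endoplasmic reticulum fell. Of 27 genes of the endoplasmic reticulum stress list 13 fell and none rose (median -0.33), and 13 or 14 fell in the 8 fits without 1 library. Hspa5, the main chaperone of that compartment, had 8742, 9802, 9812 and 9894 normalised reads at 15 months and 5229, 6420.2, 5543 and 6179 at 24 months (-0.71 ± 0.07, adjusted p = 0.00151). Hsp90b1, which folds receptors and integrins there, went from 9828, 12988, 10601 and 11491 to 6974, 6279, 5995 and 6370.2 (-0.80 ± 0.08, adjusted p = 0.00151). Calr, the lectin chaperone calreticulin, went from 12293, 13033, 12258 and 14442 to 8669, 8363, 8012 and 8112 (-0.65 ± 0.06, adjusted p = 0.00151). In each of them every 24-month library was below every 15-month library. Pdia6, a disulphide isomerase, changed by -0.74 ± 0.08 on the log2 scale (adjusted p = 0.00196) and Sdf2l1, a partner of the Hspa5 protein, had the largest fall of the list, from 187, 290.5, 179 and 270.4 to 94.5, 102, 86.3 and 92.9 (-1.26 ± 0.16, adjusted p = 0.00243). Xbp1, a transcription factor of the unfolded protein response, did not pass the test (-0.08 ± 0.10, adjusted p = 0.681), and its table value does not separate the spliced form.

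Promoters of 4 of these chaperones are printed because all hold the endoplasmic reticulum stress response element, which Atf6 and the spliced form of Xbp1 bind. The motif was chosen after the values were seen. Capitals mark matches to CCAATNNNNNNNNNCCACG on either strand, in RefSeq promoters of build GRCm38.p6 cut and written as above. Hspa5 lies at chr2:34771840-34772089 (plus strand), Hsp90b1 at chr10:86705445-86705694 (minus), Pdia6 at chr12:17266339-17266588 (plus) and Calr at chr8:84846932-84847181 (minus), and Hsp90b1 has 2 matches, 1 on each strand.
Hspa5: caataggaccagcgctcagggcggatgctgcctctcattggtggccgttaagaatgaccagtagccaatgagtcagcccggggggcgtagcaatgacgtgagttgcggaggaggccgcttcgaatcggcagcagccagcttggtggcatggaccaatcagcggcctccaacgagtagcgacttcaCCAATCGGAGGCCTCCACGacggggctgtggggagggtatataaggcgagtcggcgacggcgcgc
Hsp90b1: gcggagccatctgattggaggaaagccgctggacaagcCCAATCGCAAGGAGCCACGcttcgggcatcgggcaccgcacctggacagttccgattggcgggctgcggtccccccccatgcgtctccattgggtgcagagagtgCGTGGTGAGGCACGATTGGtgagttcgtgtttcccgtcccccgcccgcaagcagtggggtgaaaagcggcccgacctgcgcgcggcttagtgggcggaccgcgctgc
Pdia6: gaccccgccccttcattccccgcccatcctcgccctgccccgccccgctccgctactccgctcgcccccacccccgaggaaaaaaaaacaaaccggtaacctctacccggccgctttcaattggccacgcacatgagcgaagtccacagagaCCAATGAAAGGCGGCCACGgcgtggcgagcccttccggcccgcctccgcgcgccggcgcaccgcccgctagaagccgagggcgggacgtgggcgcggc
Calr: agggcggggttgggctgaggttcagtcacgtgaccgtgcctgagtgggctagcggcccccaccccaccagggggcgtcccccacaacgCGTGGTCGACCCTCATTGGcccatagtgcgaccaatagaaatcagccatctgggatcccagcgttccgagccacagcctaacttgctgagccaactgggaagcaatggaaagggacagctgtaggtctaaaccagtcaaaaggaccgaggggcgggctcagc
The element is rare. It was found in 39 of 32851 promoters (0.12%) and in 20 of the 11272 tested genes with a promoter (0.18%). Of those 20 genes 8 fell (Calr, Canx, Creld2, Derl3, Dnajc3, Hsp90b1, Hspa5 and Pdia6) and none rose. Of the called genes of the endoplasmic reticulum stress list, 7 of 11 with a promoter held it. Since list and motif were both chosen with the falls known, these shares describe the genes and test nothing.

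Cytosolic and mitochondrial heat shock proteins fell as well. All 21 tested members of the heat shock list had a negative change, 10 of them past the threshold, with a median of -0.57 and a count of 8 to 12 in the 8 fits without 1 library. Hsp90aa1, the inducible cytosolic HSP90, had the third largest fall among the genes named for size, from 8052, 12932, 9005 and 11425 to 4383, 5694, 4354 and 4596 (-1.11 ± 0.14, adjusted p = 0.00243). Its constitutive relative Hsp90ab1 fell from 18831, 24437, 20058 and 24476 to 11958, 14041, 12365 and 12723 (-0.77 ± 0.09, adjusted p = 0.00196). For both genes 15M2 and 15M4 were the highest of their age, and no 24-month library reached the 15-month range. Hspd1 and Hspe1, which together form the folding chamber of mitochondria, changed by -0.48 ± 0.06 and -0.65 ± 0.08 on the log2 scale (adjusted p = 0.00209 and 0.00263). Hspa1a, the stress-inducible HSP70, had 768, 2233, 627 and 665 at 15 months, where 15M2 stood alone, and 256, 622, 385 and 427 at 24 months. Its change of -1.19 ± 0.37 did not pass the test (adjusted p = 0.0756), and reads of its near copy Hspa1b cannot be told apart with certainty.

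Hspd1 and Hspe1 are neighbours that share a promoter region, which is shown from the side of Hspe1 for its heat shock element, the sequence that heat shock factors bind (chr1:55087898-55088147, plus strand, build GRCm38.p6). Capitals mark 2 overlapping matches, 1 on each strand, to GAANNTTCNNGAA, a motif also chosen after the values were seen.
Hspe1: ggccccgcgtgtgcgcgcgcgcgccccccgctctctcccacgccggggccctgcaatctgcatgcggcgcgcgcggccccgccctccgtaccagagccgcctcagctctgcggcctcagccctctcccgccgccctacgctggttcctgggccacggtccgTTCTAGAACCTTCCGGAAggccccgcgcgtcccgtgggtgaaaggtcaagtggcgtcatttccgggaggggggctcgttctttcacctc
This motif was found in 4 of 16 tested heat shock genes with a promoter (Chordc1, Hspd1, Hspe1 and Hsph1), in 6 of 461 genes that fell, in 1 of 461 that rose and in 0.57% of all 11272.

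The 2 intervals up to 24 months were compared next. With 6, 15 and 24 months at equal steps of 9 months, the change over the second step was tested against that over the first in 12 libraries. The 2 steps differed in 161 of 15342 genes (1.05%), in 115 of them toward a lower second step, and 132 of the 161 were also called between 15 and 24 months. They included 12 of 27 endoplasmic reticulum genes, 8 of 21 heat shock genes and 5 of 6 red cell genes. Hspa5 had 6691, 7822, 8849 and 8602 normalised reads at 6 months, where 3 of the 4 libraries were below every 15-month library, and the difference between its steps was -0.98 (adjusted p = 0.00718). Sdf2l1 stood at 115, 109, 154 and 145 at 6 months, between the later ages, with a step difference of -2.07 (adjusted p = 0.00251). The median change of the heat shock list was 0.25 from 6 to 15 months and -0.57 from 15 to 24 months; these steps share the 15-month libraries. Without 15M4 the number of genes with a step difference was 26, without 15M2 it was 76, without 24M3 it was 83, without 6M2 it was 93, without 15M1 it was 99 and without 24M4 it was 258.

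**Figure D3:**
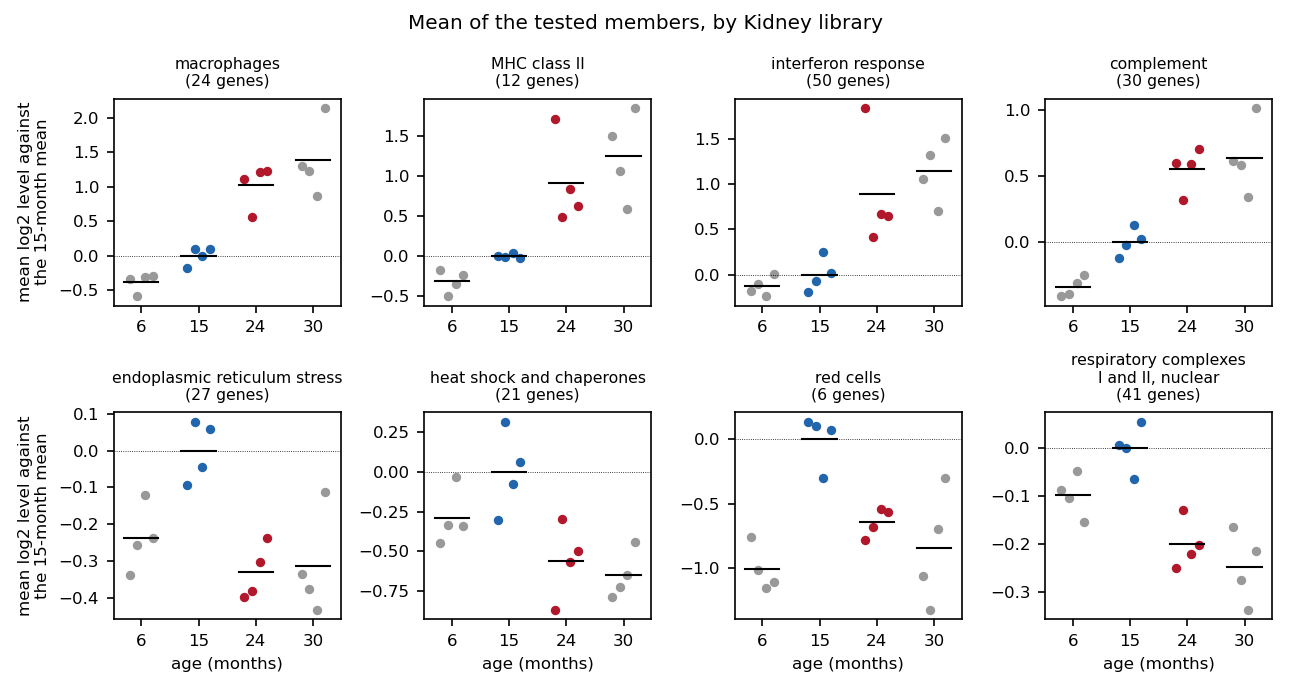
Mean log2(normalised reads + 1) of the tested members of 8 gene lists in each of the 16 Kidney libraries, relative to the mean of the 15-month libraries (vertical), by age (horizontal); points are libraries, blue at 15, red at 24 and grey at 6 and 30 months, and bars are means of 4. The immune lists lie higher at 24 than at 15 months with 24M1 on top for class II and interferon genes, and chaperone and red cell lists are highest at 15 months.

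Red cell genes followed the same course and moved beside the chaperones. Of 6 red cell genes 5 fell and none rose (median -0.76). Hba-a1, an alpha globin gene, had 2857, 2126, 2089 and 2005 normalised reads at 6 months, 6629, 5487, 4267 and 6016 at 15 months and 2628, 3241, 3600.5 and 3168 at 24 months. The 15-month libraries were the highest, and the change to 24 months was -0.82 ± 0.13 (adjusted p = 0.0063), with a step difference of -2.12 (adjusted p = 0.000684). Its near copy Hba-a2 and the beta globin genes Hbb-bs and Hbb-bt changed by -0.84 ± 0.13, -0.71 ± 0.10 and -0.81 ± 0.11 on the log2 scale, with adjusted p of 0.00678, 0.00447 and 0.00327. Alas2, the haem synthesis enzyme of red cell precursors, changed by -0.60 ± 0.13 (adjusted p = 0.0239) and lost its call without 15M1, 15M2, 15M4, 24M1 or 24M3 (highest adjusted p = 0.0714) and in the 16-library fit (adjusted p = 0.0876). The 4 globin genes took 0.0975% to 0.140% of reads at 15 months and 0.0689% to 0.0866% at 24 months. The part that blood left in the tissue has in other changes was not tested.

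**Figure D4:**
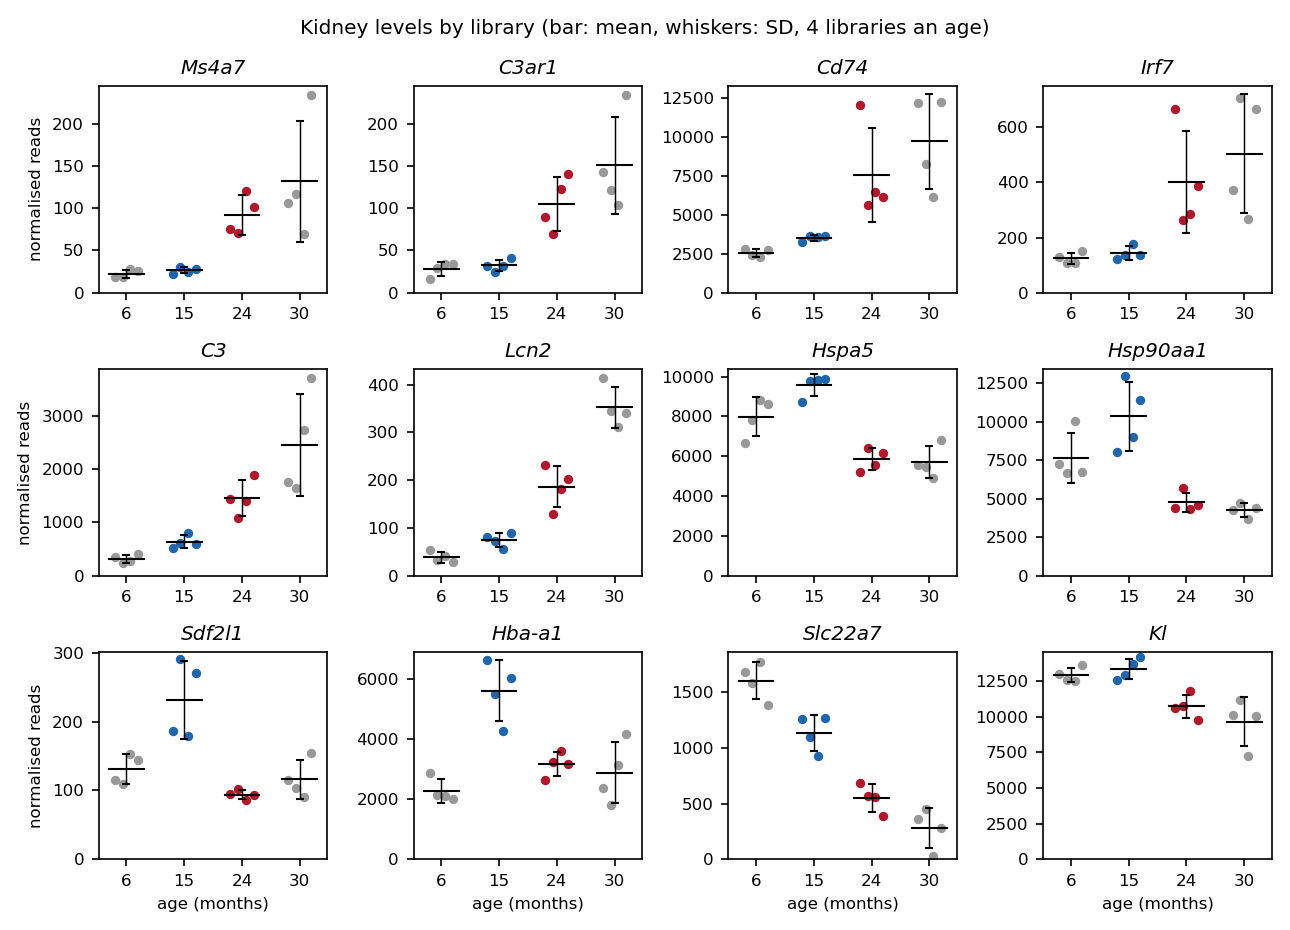
Normalised reads (vertical, from 0) of 12 genes in each Kidney library by age in months (horizontal); points are libraries, bars means and whiskers SD of 4 libraries, with 15 months in blue, 24 months in red and 6 and 30 months in grey. Ms4a7, C3ar1, C3 and Lcn2 lie higher at 24 months, the 3 chaperones and Hba-a1 peak at 15 months, and Slc22a7 and Kl are lower at 24 months.

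Nuclear genes of the respiratory chain fell by a small and even amount. Of 41 genes of complexes I and II, which feed electrons into the chain, 21 fell and none rose (median -0.20). Of 35 genes of complexes III to V, which end in ATP synthase, 20 fell and none rose (median -0.21). No tested member of either list had a positive change. Ndufa4, a small subunit of the chain, had 5199.6, 5105, 4970.4 and 5295 normalised reads at 15 months and 4158, 4537, 4264 and 4217 at 24 months (-0.26 ± 0.05, adjusted p = 0.0094), and Uqcrh, a hinge subunit of complex III, had 3936, 4170.2, 3900.0 and 4172 and then 3237, 3400.1, 3329 and 3473 (-0.27 ± 0.05, adjusted p = 0.00903). These changes were small and left no overlap between ages, as in most called genes. Uqcrh was not called in the 16-library fit (adjusted p = 0.0572). Ndufb3 of complex I and Atp5j2 of ATP synthase changed by -0.34 ± 0.06 and -0.30 ± 0.05 on the log2 scale (adjusted p = 0.00987 and 0.0102).

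The counts for the respiratory chain rested on several libraries. For complexes I and II the count was 4 without 24M3, 5 without 15M4, 7 without 15M1, 8 without 15M2 or 24M4 and 9 without 24M1. In the 16-library fit it was 12, and with no filter on low values it was 13 for each list. For complexes III to V it was 3 without 24M3, 5 without 15M4 and 8 without 15M1, 15M2 or 24M1. Of 13 messenger RNAs of the mitochondrial genome 1 fell, mt-Nd2, a subunit of complex I, from 221650, 220100, 183020 and 185200 to 160080, 162810, 145590 and 139460 (-0.41 ± 0.10, adjusted p = 0.0318; highest 0.103, no call without 15M1, 15M2, 15M4, 24M1, 24M3 or 24M4, and 0.0902 in the 16-library fit). None of 79 cytosolic ribosomal protein genes was called by limma, edgeR or limma-voom and 1 by DESeq2, with 4 at an unadjusted p under 0.05 in limma (median -0.05).

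Transporters of the proximal tubule were among the largest falls. Of 31 organic ion transporter genes 9 fell and 3 rose (median -0.15). Slc22a7, which carries organic anions, had 1264, 1094, 925 and 1267 normalised reads at 15 months and 685, 567, 558 and 383 at 24 months (-1.07 ± 0.16, adjusted p = 0.00508). Slc22a26, of the same family, went from 342, 292, 385 and 293 to 189, 186, 99.9 and 194 (-1.01 ± 0.19, adjusted p = 0.0141), and Slc22a28 and Slc22a19 changed by -0.62 ± 0.09 and -0.68 ± 0.13 on the log2 scale (adjusted p = 0.00559 and 0.015). In the 16-library fit Slc22a7, Slc22a28 and Slc22a19 were not called (adjusted p = 0.269, 0.464 and 0.29), and 1 gene of the list fell in place of 9. None of these 4 genes overlapped between ages; they are related in sequence, so reads may be shared between Slc22a26, Slc22a28 and Slc22a19. Slc10a2, the sodium-dependent bile acid carrier, went from 1019.9, 1051, 896 and 987 to 501, 619.7, 377 and 565 (-0.96 ± 0.13, adjusted p = 0.0033). Of the 3 that rose, Abcb1a, a drug efflux pump, changed by 0.73 ± 0.15 (adjusted p = 0.0182; highest 0.067, no call without 15M1, 15M4 or 24M3). The count of rises was 0 without 15M4 or 24M3 and 1 without 15M1, 15M2, 24M1 or 24M4. The count of falls was 5 without 15M2 and 3 without 15M4 or 24M3.

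Other proximal tubule genes also fell. Of 34 genes of the proximal tubule list 8 fell and none rose (median -0.19), with 3 without 15M1, 15M4, 24M1 or 24M3 and 4 without 15M2. Gatm, the first enzyme of creatine synthesis, went from 10661, 11810, 9490.4 and 10040 to 6630.0, 7186, 6497 and 7260.0 (-0.60 ± 0.07, adjusted p = 0.00196). Acmsd, which diverts tryptophan breakdown away from NAD synthesis, went from 2826, 2558, 1898 and 2130.2 to 1429, 1312, 1322 and 1093 (-0.86 ± 0.12, adjusted p = 0.00376). Neither overlapped. In the 16-library fit Gatm was not called (adjusted p = 0.0816) and 3 genes of the list fell; by DESeq2 15 fell. Of 30 amino acid, glucose and phosphate transporters 7 fell and none rose (median -0.13), and 1 fell without 15M1, 15M4 or 24M3, 2 without 24M1 and 4 without 15M2. The 16-library fit gave 3 falls and DESeq2 gave 11. Slc5a1, a sodium-glucose carrier, changed by -0.37 ± 0.08 (adjusted p = 0.018; 0.0639 without 24M3). The main glucose carrier Slc5a2 (-0.09 ± 0.06, adjusted p = 0.411) and the main phosphate carrier Slc34a1 (-0.14 ± 0.08, adjusted p = 0.312) were not called, and their groups overlapped.

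Of 30 androgen-responsive or sex-biased kidney genes 5 fell and none rose (median -0.27), with 3 without 15M1 or 15M4 and 2 without 24M3. In the 16-library fit 1 fell, and by DESeq2 and by limma-voom 8. Kap, the androgen-regulated protein of the male proximal tubule, had 231820, 235110, 227780 and 244490 and then 212550, 200180, 183410 and 155590 normalised reads, apart between ages but not called (-0.33 ± 0.11, adjusted p = 0.078). Slco1a1, an organic anion carrier that also depends on androgens, had 2095, 2186, 2590.3 and 2535 and then 3754, 2767, 2736 and 474 (-0.29 ± 0.50, adjusted p = 0.772), with 24M4 far below the rest. Its 6-month values of 5984 to 6861 were above both ages.

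Distal genes of calcium and mineral handling included a few falls. Kl, which encodes klotho, went from 12590, 12931, 13676 and 14175 to 10599, 10757, 11793 and 9802 (-0.31 ± 0.06, adjusted p = 0.0169), without overlap, and missed the threshold without 15M4 (adjusted p = 0.0556) and in the 16-library fit (adjusted p = 0.0784). Calb1, the calcium-binding protein of the distal tubule, went from 4726, 5289, 4755 and 5182 to 3093, 3257, 3858 and 3657 (-0.53 ± 0.07, adjusted p = 0.00371), and Klk1, the kallikrein of the connecting tubule, from 24335, 27825, 23233 and 24644 to 16067, 15968, 18755 and 19834 (-0.51 ± 0.08, adjusted p = 0.00759). Both were clearly apart between ages. Renin, encoded by Ren1, had 812, 720.4, 797 and 754 and then 590.3, 482, 229 and 532 normalised reads, also apart, with a change of -0.83 ± 0.23 that just missed the threshold (adjusted p = 0.0535). The size of the Ren1 change depended on 24M3, the lowest library. It was -0.53 without 24M3 (adjusted p = 0.0159) and -0.98 without 24M1 (adjusted p = 0.0348). Ren1 was called in these fits and in no other fit without 1 library. Some well-known genes of other segments were not called: Umod and Egf of the thick ascending limb (0.03 ± 0.08 and -0.13 ± 0.07, adjusted p = 0.839 and 0.302), Aqp2 of principal cells (0.09 ± 0.13, adjusted p = 0.694) and Nphs1 of podocytes (0.05 ± 0.08, adjusted p = 0.762). Other genes of those lists were called, with 1 of 14 genes of the thick ascending limb and 1 of 13 of principal cells lower and 4 of 16 of podocytes higher. Epo, at most 5.81 normalised reads, was not tested.

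Tubule injury genes were divided. Of 32 genes 5 rose and 2 fell (median 0.17), with 3 rises without 15M1 or 15M4 and 2 without 24M3. Lcn2, an iron-siderophore binding protein released by stressed tubules, went from 82.2, 71.9, 56.3 and 89.8 to 231, 129.9, 182 and 202 (1.29 ± 0.19, adjusted p = 0.00503). Vcam1, an adhesion molecule for leukocytes that failed-repair tubule cells also carry, went from 252, 290.5, 297 and 319.9 to 484, 388, 522 and 512 (0.71 ± 0.11, adjusted p = 0.00527). The 24-month libraries were above all 15-month libraries for both. Cd44, the hyaluronan receptor, rose by 0.71 ± 0.15 (adjusted p = 0.0221; highest 0.072, no call without 15M4 or 24M3). In the 16-library fit Cd44 was not called (adjusted p = 0.153) and 3 genes of the list rose. Clu, the secreted chaperone clusterin, fell from 5415, 5884, 3993 and 5294 to 3357, 3829.8, 3839 and 3729.9 (-0.47 ± 0.10, adjusted p = 0.0232; highest 0.0693, no call without 15M1, 15M2, 15M4 or 24M3). Its 6-month values were 3097 to 3385, and the steps differed by -1.13 (adjusted p = 0.00348). Havcr1, the acute injury marker KIM-1, had 52.9, 67.6, 42.8 and 55.9 and then 78.9, 46.8, 111 and 63.9 (0.40 ± 0.24, adjusted p = 0.339), Spp1, osteopontin, had a change of 0.04 ± 0.09 (adjusted p = 0.832) and Sox9, a repair factor, of 0.61 ± 0.27 (adjusted p = 0.191). None of these was called, and Krt20, with at most 11.6 normalised reads, was not tested.

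Stromal genes rose in part. Of 22 fibroblast, mesangial and pericyte genes 6 rose and none fell (median 0.27), and 3 rose without 15M1, 15M4 or 24M3. Of 35 genes of fibrosis and matrix remodelling 9 rose and none fell (median 0.23), with 5 without 15M1 or 15M4 and 4 without 24M3. Dcn, the fibroblast proteoglycan decorin, went from 795, 771, 835 and 831 to 1262, 1204, 1394 and 1235 (0.65 ± 0.06, adjusted p = 0.00151), and Col14a1, a collagen that decorates fibrils, from 776, 762, 789 and 727 to 1065, 961, 1231 and 1316 (0.57 ± 0.09, adjusted p = 0.00628). Neither gene overlapped between ages. Fn1, fibronectin, rose by 0.53 ± 0.13 (adjusted p = 0.038; highest 0.101, no call without 15M1, 15M2, 15M3, 15M4, 24M1, 24M3 or 24M4, and 0.319 in the 16-library fit). The fibrillar collagens Col1a1 (0.33 ± 0.12, adjusted p = 0.119) and Col3a1 (0.08 ± 0.11, adjusted p = 0.729) were not called and overlapped. The summed level of 6 fibroblast and mesangial markers was 2597 to 2852 normalised reads at 15 months and 3370 to 4009 at 24 months, and that of 6 macrophage markers 1609 to 1823 and 2177 to 3165. Of 16 podocyte genes 4 rose and none fell (median 0.19), among them Robo2, a guidance receptor, at 0.42 ± 0.08 (adjusted p = 0.0116); 1 rose without 15M1, 15M4 or 24M3 and 2 without 24M1 or 24M4.

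The further lists of this paragraph gave few calls in number, beside 3.97% of all genes that rose and 3.81% that fell. In the main fit the shares that rose in the cell cycle and adipocyte lists were above the first of these values. The shares that fell in the NRF2 and lipid synthesis lists were above the second. Of 24 p53 target genes 1 rose, the death receptor gene Eda2r, from 10.1, 21.6, 19.2 and 20.2 to 38.5, 30.6, 30.7 and 39.5 (0.97 ± 0.26, adjusted p = 0.0424; highest 0.0959, no call without 15M1, 15M3, 15M4, 24M1, 24M2, 24M3 or 24M4). Cdkn1a, the cell cycle inhibitor p21, had 100.2, 131, 147 and 122 and then 144, 165, 170.3 and 184 (0.41 ± 0.13, adjusted p = 0.0731), and Cdkn2a, at most 3.82 normalised reads, was not tested. None of 20 senescence genes was called by limma, edgeR, DESeq2 or limma-voom, while 9 had an unadjusted p under 0.05 in limma (median 0.25). None of 20 circadian clock genes was called by any of these tools, and 0 had an unadjusted p under 0.05 in limma (median 0.10). Of 32 cell cycle genes 3 rose and none fell (median 0.33), including the DNA topoisomerase gene Top2a, at 39.4, 47.5, 56.3 and 50.4 and then 99.9, 69.7, 110.1 and 91.8 (0.92 ± 0.17, adjusted p = 0.0116, and 0.109 in the 16-library fit). Of 30 targets of the antioxidant factor NRF2 6 fell and 2 rose (median -0.09); Gclc, which sets the rate of glutathione synthesis, fell from 5566, 5175, 5448 and 4682 to 3823, 3555, 3572 and 3252 (-0.55 ± 0.07, adjusted p = 0.00202). The fall count was 3 without 15M3 or 24M1, 2 without 15M4 or in the 16-library fit and 1 without 24M3. Of 25 lipid and cholesterol synthesis genes 5 fell and none rose, with 1 without 15M1, 15M4 or 24M3, 3 without 24M4 and none in the 16-library fit. Lep, the fat-cell hormone leptin, rose from 1.13, 1.44, 5.70 and 2.75 to 18.9, 24.8, 10.2 and 34.8 (2.66 ± 0.48, adjusted p = 0.01), and 3 of 8 adipocyte genes rose, with 1 left without 15M1, 15M4, 24M2 or 24M4. The summed level of 4 adipocyte markers was 45.0 to 136 normalised reads at 15 months and 116 to 336 at 24 months, and the part of adhering fat was not tested.

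The genes with the largest falls included some of unknown standing in this tissue. H2bc6 and H2aw, histone genes, changed by -1.56 ± 0.36 and -0.85 ± 0.10 on the log2 scale (adjusted p = 0.0266 and 0.00196). H2bc6 had 38.3, 54.6, 112 and 112 and then 26.3, 19.1, 17.0 and 36.0 normalised reads and lost its call without 15M3, 15M4 or 24M3 (highest adjusted p = 0.0861). Many histone messages lack a poly(A) tail and histone genes are near copies, so their level in a poly(A) library is uncertain. Halr1, a long noncoding RNA, changed by -0.97 ± 0.17 (adjusted p = 0.00932) and Eif3j2, a copy of a translation initiation factor gene, by -0.91 ± 0.20 (adjusted p = 0.0248; highest 0.063, no call without 15M1, 15M2, 15M3, 15M4, 24M1 or 24M3).

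The other 8 Kidney libraries, at 6 and 30 months, allowed the same genes to be compared across a wider span with no library in common. Replicates 3 and 4 of 30 months stood apart from the other Kidney libraries, each with a median rank correlation of 0.977. Of 15064 genes tested there 1675 were higher at 30 months (11.1%) and 1503 lower (9.98%). Of 586 genes that rose from 15 to 24 months and were tested in both, 394 were also higher at 30 than at 6 months, which was 67.2% of the 586 and 24.1% of 1632. Of 575 that fell, 262 were also lower, 45.6% of the 575 and 17.5% of 1499. The sign was the same for 95.4% of the genes that rose, 92.3% of those that fell and 67.5% of all 14857 genes tested in both. In opposite directions were 4 genes, named here after their values were seen: Igfbp1, Rn7sk, Eif5 and Ctps. Igfbp1, a binding protein of insulin-like growth factors, changed by -1.37 from 15 to 24 months (adjusted p = 0.0478) and was 1.62 higher at 30 than at 6 months (adjusted p = 0.026); the first call was lost without 15M1, 15M2, 15M4, 24M2, 24M3 or 24M4 (highest adjusted p = 0.128), by edgeR, DESeq2 and limma-voom and in the 16-library fit (adjusted p = 0.0846). Rn7sk and Eif5 were not called from 15 to 24 months in that fit either (adjusted p = 0.337 and 0.0968). Rn7sk also lost its call without 15M1, 15M2, 15M4, 24M3 or 24M4 (highest adjusted p = 0.0806). Eif5 lost it without 15M2, 15M3, 15M4, 24M1, 24M2, 24M3 or 24M4 (highest 0.114). Ctps lost it in all 8 fits without 1 library (highest 0.143) and by DESeq2. Over both comparisons 656 genes were called the same way, 371 without 15M1, 321 without 15M4, 251 without 24M3 and 412 without 24M4.

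In the 30 against 6 month comparison, 22 of 24 macrophage genes, 9 of 12 class II genes, 22 of 24 class I genes, 45 of 49 interferon-response genes and 20 of 29 complement genes were higher and, of complement, 2 were lower. Lcn2 changed by 3.18 (adjusted p = 1.02e-05), C3 by 2.91 (adjusted p = 9.26e-05) and Slc22a7 by -3.04 (adjusted p = 0.0121), with 361, 454, 29.9 and 283 normalised reads at 30 months. Of the chaperones, 13 of 21 heat shock genes were lower and 1 higher, and 9 of 27 endoplasmic reticulum genes were lower and 2 higher. Of all genes tested in this comparison 11.1% were higher and 9.98% lower. The respiratory chain lists gave 5 of 41 and 3 of 35 lower genes, the first share a little above and the second a little below that of all genes. No red cell gene was higher while 1 of 6 was lower. Injury genes not called from 15 to 24 months were higher here, Havcr1 by 2.37 (adjusted p = 0.00633) and Spp1 by 0.99 (adjusted p = 0.000258).

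The same ages were compared in Liver and in Lung, and the difference between the changes was tested gene by gene. Against Liver 153 of 12455 genes differed (1.23%), and against Lung 923 of 14144 (6.53%). In neither comparison do the labels say whether the tissues came from the same animals. Of the interferon-response list none of 50 genes differed from Liver and none of 49 from Lung in limma, edgeR or limma-voom, 1 differed in each by DESeq2, and 2 and 1 had an unadjusted p under 0.05 in limma. Median changes of that list were 0.83 in Liver and 0.90 in Lung beside 0.88 in Kidney. Within each tissue, however, 1 of 50 genes of the list was called higher in Liver and 11 of 49 in Lung. Over all genes 275 of 13097 were higher in Liver and 759 of 16591 in Lung. Over all genes 2.21% were lower in Liver, and 4.18% lower and 4.57% higher in Lung. The median change of the heat shock list was -0.74 in Liver and -0.82 in Lung, where 9 and 17 of 21 genes fell, and 0 and 1 of 21 genes differed from Kidney in limma. For Liver the count was 0 also by edgeR, DESeq2 and limma-voom, with 3 at an unadjusted p under 0.05. Of the 27 endoplasmic reticulum genes 14 fell in Liver and 14 in Lung, and 3 and 1 differed from Kidney. A test that misses the threshold does not show that the changes were equal.

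Complement genes differed in part. The median change of the list was 0.03 in Liver and 0.06 in Lung against 0.60 in Kidney, and 4 of 29 genes differed from Liver and 7 of 26 from Lung. C3 rose in Kidney by 1.19 and its log2 difference was -0.13 in Liver and 0.22 in Lung, differences of 1.32 (adjusted p = 0.0144) and 0.97 (adjusted p = 0.0356). Macrophage genes had median changes of 0.95 in Liver and 0.57 in Lung beside 1.13 in Kidney. In Liver and in Lung 9 of 24 rose, where 275 of 13097 and 759 of 16591 of all genes did. None of 24 differed from Liver in limma, 1 did by edgeR, 1 by limma-voom and 4 by DESeq2, and 4 differed from Lung in limma. Lyz2 had a log2 difference of 0.15 in Lung, where alveolar cells also make it, a difference of 1.21 (adjusted p = 0.00217). The respiratory chain lists differed from Lung in 22 of 41 and 23 of 35 genes. From Liver none differed in limma, edgeR or limma-voom and 1 and 2 in DESeq2, with 12 and 11 at an unadjusted p under 0.05 in limma. The lists had median changes of 0.07 and 0.09 in Lung and -0.11 and -0.13 in Liver. Of 79 ribosomal protein genes, uncalled in Kidney, 50 rose in Lung, where 4.57% of all genes did, and 45 differed. Stromal genes differed from Lung too, in 10 of 35 fibrosis genes and 10 of 21 fibroblast genes. In Lung itself 6 of 35 and 7 of 21 fell, where 4.18% of all genes did, with median changes of -0.21 and -0.26. From Liver, with medians of 0.19 and 0.30, none of 27 and none of 14 differed by limma, edgeR, DESeq2 or limma-voom. An unadjusted p under 0.05 in limma was found for 3 and 2 of these. Dcn had a log2 difference of -0.17 in Lung, a difference of 0.83 (adjusted p = 0.00112). Globin genes differed from Liver in 4 of 5 red cell genes; Hba-a1 had a log2 difference of 0.71 there, a difference of -1.52 (adjusted p = 0.0209). Gatm had a log2 difference of 0.42 in Liver and of 0.65 in Lung, neither called (adjusted p = 0.164 and 0.0779), and its fall in Kidney differed from both (adjusted p = 0.0109 and 0.00465).

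The number of genes that differed from Liver was 78 without Kidney 15M1, 88 without Kidney 15M2 and 92 without Kidney 15M3 or 15M4. It was 80, 67 and 94 without Kidney 24M1, 24M3 and 24M4, and 263 without Liver 24M3. Against Lung it was 582 without Kidney 15M1, 607 without 15M4, 514 without 24M3 and 516 without Lung 24M2.

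**Figure D5:**
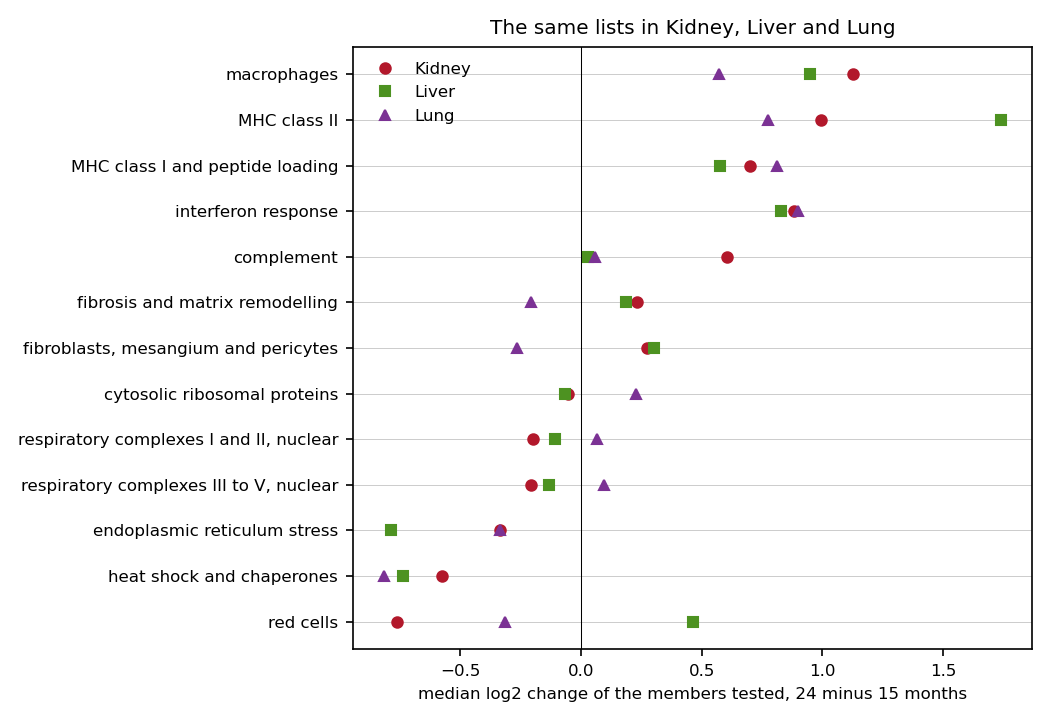
Median log2 change from 15 to 24 months (horizontal) of the tested members of 13 gene lists (vertical) in Kidney (circles), Liver (squares) and Lung (triangles), each tissue with 4 libraries an age. Chaperone lists lie left of 0 in all 3 tissues, the complement list is at 0.60 in Kidney and near 0 in the other tissues, and the respiratory chain lists lie left of 0 in Kidney and right of it in Lung.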

How the data were processed

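Poly(A) RNA-seq of whole Kidney was analysed in 8 libraries, with the 6- and 30-month Kidney libraries and the 15- and 24-month Liver and Lung libraries for the further comparisons. STAR, RSEM and DESeq2 and build GRCm39 are named, without versions, in the submitters' processing notes. No annotation release is stated there. The authors deposited 1 table per tissue of normalised reads, a signal in which reads of each library are divided by 1 factor; dividing by the smallest step gave back whole reads for 100% of values within 0.01 reads. Genes are named by symbol only.

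Genes passing edgeR's filterByExpr (minimum count 10) were tested on log2(value + 1) with limma 3.58.1 in R 4.3.3 (trend, two-sided, Benjamini-Hochberg adjusted over all genes tested). edgeR 4.0.16, DESeq2 1.42.0 and limma-voom on the recovered reads, other scalings, pseudocounts of 0.1 and 5, no filter, pooled libraries, a replicate block and leaving out each library were alternatives. With edgeR's count test on recovered reads 1175 genes were called. The scripts were tested on simulated data. Replicates of an age differed by more than counting noise (chi-square over degrees of freedom at least 4.05), so none was counted as a copy.

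The comparison, the 53 gene lists and the tests were chosen with earlier results of these data known. Genes were named by rule: the 12 largest changes each way among called genes with a mean of at least 50 normalised reads and no overlap (unnamed models and immunoglobulin segments left out), up to 4 members of each list by smallest p, and a panel of 28 genes. Outside the rule, and chosen after their values were seen, are Pdia6, Hspe1, Adgre1, Cx3cr1, C7, B2m, Cd163, Alas2, H2-K1, Psmb8, Ifit1, Igfbp1, Rn7sk, Eif5, Ctps, Hspa1a, Ciita, Kap, Trem2, Csf1r and Xbp1. Promoters were matched by symbol to a RefSeq table of build GRCm38.p6, 250 bases before to 50 after each start, and searched on both strands.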

Additional observations from a re-analysis of the deposited data

Results flagged for a closer look

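Of 214 sets of 4 libraries looked at, 107 genes at each of the ages 15 and 24 months, 25 held a library far from the other 3 by Dixon's test. Chance gives about 1 in 20, but only for independent sets of unselected genes. Some of these genes were chosen after their values were seen, and genes that move together repeat the deviation of 1 library. The count of 25 therefore describes the sets and cannot be tested against that rate. The values below are normalised reads. 24-month replicate 1 was the library in 11 of the 25. It was high for B2m at 10806 (others 5311 to 5864), Cd74 at 12005 (others 5588 to 6461), Ciita at 681 (others 135 to 182), H2-DMb2 at 224 (others 43.9 to 70.4), H2-K1 at 10144 (others 5014 to 5465), Ifit1 at 343 (others 140.4 to 173), Nlrc5 at 515 (others 137 to 176), Psmb8 at 730.0 (others 235 to 301), Tgtp2 at 1538 (others 321 to 384). It was low for Eif5 at 3490.1 (others 3588 to 3602), Hba-a2 at 2433 (others 3024 to 3129).

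The other 24-month libraries that stood apart were replicate 2 for C1qc at 448 (others 606 to 635), replicate 2 for Ndufb3 at 1246 (others 1074 to 1092), replicate 3 for Slc22a26 at 99.9 (others 186 to 194). At 15 months they were replicate 1 for Cd74 at 3249 (others 3589 to 3631), replicate 1 for Cfd at 78.8 (others 147 to 157), replicate 3 for Col3a1 at 522 (others 610.1 to 619.8), replicate 1 for H2-DMb2 at 30.4 (others 19.2 to 20.2), replicate 3 for Hba-a2 at 3764 (others 5641 to 5960.5), replicate 2 for Hspa1a at 2233 (others 627 to 768), replicate 1 for Hspa5 at 8742 (others 9802 to 9894), replicate 1 for Igfbp1 at 232 (others 76.2 to 102), replicate 2 for Ighm at 2975 (others 2203 to 2266), replicate 3 for Ndufb3 at 1328 (others 1453 to 1467), replicate 4 for Slc5a2 at 7151 (others 6534 to 6609).

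The log2 change from 15 to 24 months in Kidney differed from that in Liver, by limma's test of the difference, for 7 of the named genes. Kidney minus Liver was 1.32 for C3 (adjusted p = 0.0144), 2.84 for Derl3 (adjusted p = 0.031), -1.03 for Gatm (adjusted p = 0.0109), -1.52 for Hba-a1 (adjusted p = 0.0209), -1.19 for Hba-a2 (adjusted p = 0.0478), -1.33 for Hbb-bs (adjusted p = 0.022), -1.28 for Hbb-bt (adjusted p = 0.0472). The log2 change of Derl3 was negative in both tissues, -1.18 in Kidney and -4.02 in Liver.

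The log2 change from 15 to 24 months in Kidney differed from that in Lung, by limma's test of the difference, for 17 of the named genes. Kidney minus Lung was -0.44 for Atp5j2 (adjusted p = 0.0087), 0.97 for C3 (adjusted p = 0.0356), 1.13 for C7 (adjusted p = 0.0046), 1.41 for Cd163 (adjusted p = 0.0177), 1.01 for Cdkn1a (adjusted p = 0.0139), 1.45 for Cfd (adjusted p = 0.0135), 0.57 for Col14a1 (adjusted p = 0.0213), 0.83 for Dcn (adjusted p = 0.00112), 1.02 for Fn1 (adjusted p = 0.00783), -1.26 for Gatm (adjusted p = 0.00465), -0.56 for H2aw (adjusted p = 0.0355), 1.21 for Lyz2 (adjusted p = 0.00217), -0.40 for Ndufa4 (adjusted p = 0.00308), -0.38 for Ndufb3 (adjusted p = 0.0321), 0.60 for Robo2 (adjusted p = 0.0263), -0.38 for Uqcrh (adjusted p = 0.00436), 0.74 for Vcam1 (adjusted p = 0.00975).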

How the results depend on the processing

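All 1174 genes kept their sign under the 18 alternatives, which the gap between ages in most of them nearly fixed in advance. The number called was 785 to 1731 in the fits that left out no 15- or 24-month library. With the spread taken from all 16 Kidney libraries 344 genes were lower and 50 differed between steps, and with all 16 libraries of both tissues 79 differed from Liver and 381 from Lung. DESeq2 gave 482 genes for the steps and 513 against Liver, and no filter gave 105 for the steps. Why these counts moved was not tested. Without 1 library, 347 to 1221 genes were called, 201 to 633 higher and 146 to 588 lower. In such fits 26 to 258 differed between steps, 67 to 263 from Liver and 514 to 1034 from Lung, and 251 to 723 were called the same way at 30 against 6 months. The named genes called in all 8 libraries numbered 87; none reversed, 58 kept their call in each fit without 1 library, and between 0 and 18 lost it in the other alternatives.

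Same-numbered libraries of 15 and 24 months deviated together only weakly (correlations of 0.107, 0.016, 0.002 and 0.090), so the numbers were not taken to pair them. With the replicate block 1241 genes were called, 620 higher and 621 lower, 181 differed between steps, 134 from Liver and 892 from Lung, and 627 were shared with 30 against 6 months. Genes with few reads limit the comparison: Krt20, Epo and Cdkn2a fell below the filter.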

Other observations

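Other gene groups gave small counts between 15 and 24 months. In the main fit the share that rose in each list of this paragraph was nevertheless above the 3.97% of all genes that rose. Of 13 dendritic cell genes 4 rose (median 0.61; 1 or 2 without 15M1, 15M2, 15M4, 24M1, 24M3 or 24M4, where M joins age and replicate, and 1 in the 16-library fit), and of 29 NF-kappa B and TNF response genes 4 rose and 2 fell (median 0.25; 1 rise without 15M1, 15M4, 24M3 or 24M4, 2 without 24M1 and 8 without 24M2). Of 22 collagen genes 5 rose and 1 fell (median 0.12; 3 rises without 15M1, 15M3, 24M1 or 24M4, 2 without 15M4 and 1 without 24M3 or in the 16-library fit). Of 18 iron handling genes 3 rose (median 0.05; 1 without 15M1, 15M4 or 24M3).

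The metabolic groups gave few falls in number, but in the main fit each share was above the 3.81% of all genes that fell. Of 27 cytochrome P450 genes 4 fell (median -0.16; 2 without 24M3, 7 by DESeq2 and 1 in the 16-library fit), of 32 fatty acid oxidation genes 3 fell (median -0.07; 1 without 15M3, 15M4 or 24M3) and of 36 conjugating enzyme genes 2 fell (median 0.02), with 21 changes positive and 15 negative. Of 23 genes of gluconeogenesis and glycolysis 5 fell and 1 rose (median -0.15; 0 to 3 falls without 15M1, 15M2, 15M4, 24M1, 24M3 or 24M4, 9 by DESeq2 and 3 in the 16-library fit).

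Along the nephron, 3 of 14 intercalated cell genes fell (median -0.15; 0 or 1 without 15M3, 15M4, 24M1 or 24M3, and 1 in the 16-library fit), as did 2 of 13 distal convoluted and connecting tubule genes, 1 of 13 principal cell genes and 1 of 14 thick ascending limb genes. Of 17 klotho, vitamin D and mineral handling genes 3 fell and 1 rose (median -0.22; 1 fall without 15M4 or in the 16-library fit, 6 by DESeq2). Of 21 renin-angiotensin and kidney hormone genes 2 fell, and of 21 endothelial genes 1 rose. Of 16 glucocorticoid and metallothionein genes 2 fell and 1 rose, of 28 splicing factors 2 fell and 1 rose, and of 25 immediate early genes 1 rose (median -0.25). No gene was called by limma, edgeR, DESeq2 or limma-voom among 10 urothelial and 2 adrenal cortex genes, where 0 had an unadjusted p under 0.05.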
